A study of Mus musculus with 4 samples.

Results

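Gamma-delta T cells that carried transcripts of the chemokine Xcl1 or the protease Gzmc were examined in 4 mouse mammary tumours. UMIs (unique molecular identifiers) count captured transcripts, and a barcode was kept as a cell when it held 500 UMIs or more from 250 genes or more, no more than 20% of them mitochondrial. A member then needed at least 1 UMI of Cd3d, Cd3e or Cd3g, at least 1 of Trdc, none of Cd4, Cd8b1 or Foxp3, at least 1 of Gzmc or Xcl1, fewer than 2 of Mki67 and Top2a together, and fewer than 3 of Lyz2. This gave 451 members among 14555 cells. WT 1 held 173, WT 2 held 187, Il1a-/- 1 held 27 and Il1a-/- 2 held 64. Another 369 cells met every condition except the one on Gzmc and Xcl1 and are called the other gamma-delta cells, so the members were 451 of 820 gamma-delta cells.

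Gamma-delta T cells use a receptor built from a gamma and a delta chain instead of the alpha and beta chains of most T cells, and in mice they fall broadly into cells that make interferon gamma and cells that make interleukin 17. Many of those in tissues also carry receptors first described on natural killer (NK) cells, and can kill target cells with granzymes and perforin. Xcl1 is a chemokine that attracts the conventional dendritic cells that bear the receptor Xcr1. Gzmc is a granzyme, and Cd160 is a surface receptor of cytotoxic lymphocytes.

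All 4 tumours grew from H605, a HER2-positive mouse mammary tumour line injected in the mammary pad of FVB/NJ mice, and were taken at day 14. The 2 WT hosts were wild type and the 2 Il1a-/- hosts lacked interleukin 1 alpha, so the injected tumour cells were the same in both groups and only the host carried the deletion. The labels give an age of 6 to 8 weeks for every mouse, and describe the tumours as 2 pairs that were collected on different days. Each tumour was digested with collagenase IV and hyaluronidase, enriched for live cells and made into 1 single-cell 3' library. The model has limits of its own: 1 transplanted line, 2 hosts a group, and a C57BL/6 reference genome for FVB/NJ mice, which matters most for polymorphic families such as the Klra receptors.

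Depth differed between the libraries. They held between 6705368 UMIs (Il1a-/- 1) and 29001333 UMIs (WT 2), and gave 3213 to 4006 cells. The median member had 3849 UMIs in WT 1, 5539 in WT 2, 1389 in Il1a-/- 1 and 3544.5 in Il1a-/- 2. Members summed to 751540, 1178394, 41055 and 243900 UMIs in that order, so that 1 UMI in the members of Il1a-/- 1 is already a level of 24.4 on the scale used below. Between 0 and 6 cell barcodes were shared by any pair of libraries, and none of them was a member. All values below follow the order WT 1, WT 2, Il1a-/- 1, Il1a-/- 2, and levels are CPM, the UMIs of a gene per 1000000 UMIs summed over the cells of 1 population in 1 tumour.

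The members were chosen on Xcl1 in nearly every case. An Xcl1 UMI was present in 449 of them and Gzmc in 27, and 25 had both. Xcl1 (ENSMUSG00000026573; GRCm38 chromosome 1, 164931644 to 164935527, minus strand) and Gzmc (ENSMUSG00000079186; chromosome 14, 56231441 to 56234656, minus strand) are both protein-coding genes. Just inside the limits lay 129 members with exactly 1 Xcl1 or Gzmc UMI, 110 with exactly 1 Trdc UMI and 75 with exactly 1 Cd3 UMI. Just outside lay 439 cells that lacked only Trdc, 451 that lacked only a Cd3 UMI, 58 that exceeded the cell cycle limit, 23 with a Cd4, Cd8b1 or Foxp3 UMI and 7 above the Lyz2 limit. The median member held 3, 4, 1 and 2 Xcl1 UMIs, so more of the members from Il1a-/- hosts stood at the limit.

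Of the 4 genes given as marks of a cytotoxic gamma-delta cell, Trdc, Xcl1 and Gzmc were in the rule, and Gzmc was rare. Cd160 was not in the rule and was found in 159 members. Cd160 (ENSMUSG00000038304; chromosome 3, 96798763 to 96829351, minus strand) had a UMI in 36.4, 42.8, 7.41 and 21.9% of members. After each member with at least 1000 UMIs was thinned to 1000, the shares were 11.6, 13.4, 4.0 and 4.69%. For such thinned shares of a gene, the populations were still chosen at full depth, and cells under 1000 UMIs were left out. The thinned shares of members and the thinned tests below instead applied the rule again to the thinned counts. The Gzmc signal rested on few cells: 212 of its 291 UMIs came from 1 cell of WT 2, and the same cell held 435 of the 712 Gzmb UMIs of all members. Any of Gzma, Gzmb, Gzmc or Prf1, which encode granzymes and perforin, was detected in 208 members, or 37.6, 56.1, 29.6 and 46.9% by tumour. In the NK lineage, taken as cells with an Ncr1 or Klrb1c UMI and none of Cd3, Cd4, Cd8b1 or Foxp3, the same 4 genes were detected in 70.7, 86.1, 73.3 and 88.4% of cells, higher in every tumour, also after thinning (16.8, 27.8, 24 and 31.3% of members against 54.8, 69.5, 68.7 and 81.9%). No UMI of Gzme, Gzmg or Gzmk was found, and 0 of 451 cells allows a share of up to 0.665%. The members are therefore called Xcl1+ gamma-delta cells here, after the gene that selected them.

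The receptor genes came first among the checks of the label. Trdc encodes the constant part of the delta chain (ENSMUSG00000104876; chromosome 14, 54142851 to 54148868, plus strand). It was part of the rule. A Trdc UMI was found in 1.73, 1.20, 0 and 0% of phagocytes (at least 3 UMIs of Lyz2 and 2 of the phagocyte genes Csf1r, C1qa, C1qb and C1qc), at median depths of 5140, 5697.5, 2544 and 4917.5 UMIs. In the NK lineage, which was chosen for lacking Cd3, it was found in 39.1, 38.5, 15.3 and 24.1% of cells, so a Trdc UMI alone did not separate the members from that lineage. The constant genes of the gamma chain were not in the rule. Tcrg-C1, Tcrg-C2 and Tcrg-C4 (all on chromosome 13, at 19214103 to 19217024, 19304649 to 19307551 and 19344558 to 19352756) together gave a UMI in 58.4, 58.3, 55.6 and 68.8% of members, and in 65.9, 58.2, 52.2 and 71.8% of the other gamma-delta cells. The NK lineage stood at 6.97, 6.72, 6.28 and 2.61%. Thinned to 1000 UMIs, the gamma constant share was 29.5, 23.5, 40.0 and 29.7% of members and 2.59, 1.69, 6.79 and 0.938% of the NK lineage, so the members lay above the NK lineage in all 4 tumours. Reads from near-identical gamma constant genes may be split between copies.

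Alpha-beta constant genes were less clear. A Trbc1 or Trbc2 UMI, from the beta chain constant genes, was present in 93.1, 95.7, 66.7 and 93.8% of members, but also in 90.1, 93.4, 68.4 and 86.4% of the NK lineage. Trac, from the alpha chain, was found in 65 members (12.1, 17.6, 3.70 and 15.6%), against 65.0, 80.0, 53.1 and 75.5% of CD8 T cells (Cd3 and Cd8b1 UMIs, none of Trdc, Cd4 or Foxp3). Beta chain transcripts thus did not separate the members from cells without CD3, while Trac did separate them from CD8 T cells.

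Among the variable segments, Trgv2 was the most frequent in the members, in 143 cells (58, 54, 5 and 26). It was found in 90 of the other gamma-delta cells and in 0 of 2162 NK lineage cells, which allows a share of up to 0.139%, but also in 60 CD8 T cells. Tcrg-V1 was seen in 45 members and 13 NK lineage cells, and Tcrg-V4 in 24 members and 0 NK lineage cells. Tcrg-V6, the gamma segment of a well-known interleukin 17 producing lineage, was seen in 2 members and 18 other gamma-delta cells. Delta segments were found in the NK lineage too: Trdv4 was seen in 10 members, 43 other gamma-delta cells and 69 NK lineage cells, and Trdv2-2 in 7, 4 and 35. A 3' library reads few variable segments, so these are minimum counts and not the repertoire.

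The NK receptor genes Ncr1 (which encodes NKp46) and Klrb1c (which encodes NK1.1 in strains that have it) were detected in many members. At least 1 UMI of either was present in 64.7, 67.9, 40.7 and 45.3% of members and in 23.2, 44.5, 23.9 and 35.5% of the other gamma-delta cells. Thinned, the members stood at 33.5, 32.6, 36.0 and 20.3%. The 2 kinds of gene did not divide the members cleanly: 143 had both a gamma constant and an NK receptor UMI, 126 only the former, 136 only the latter, and 46 neither. Members with a gamma constant UMI had median depths of 3942, 5796, 1497 and 3609.5 UMIs, and those without had 3641.5, 5209.5, 1339 and 3466.5, lower in each tumour by a small margin. An NK receptor UMI was found in 59.4, 52.3, 33.3 and 47.7% of members with a gamma constant UMI and in 72.2, 89.7, 50 and 40% of those without, higher in the latter in 3 of 4 tumours.

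**Figure D1:**
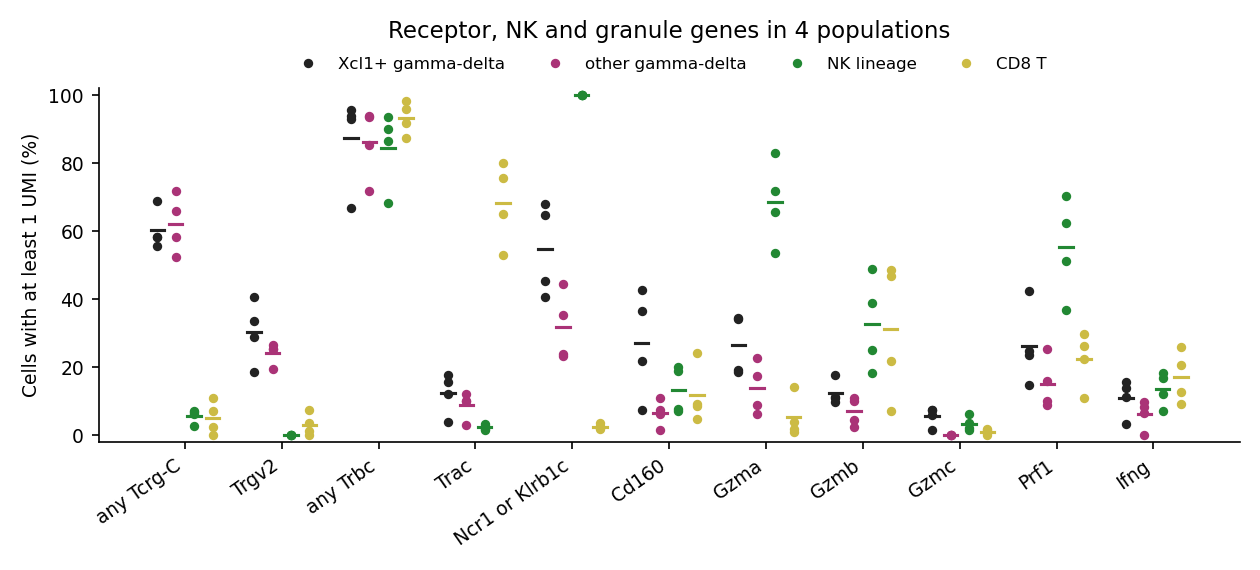
Share of cells with at least 1 UMI (vertical axis, percent) for 11 genes or gene groups in Xcl1+ gamma-delta cells, other gamma-delta cells, NK lineage cells and CD8 T cells. Each point is 1 tumour and each line the mean of 4; Ncr1 or Klrb1c defines the NK lineage, and Gzmc is part of the rule for the members. Gamma constant genes are found in 55.6 to 68.8% of members, and Gzma and Prf1 are found in more of the NK lineage than of the members in each tumour.

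The first host question was how many gamma-delta cells were Xcl1+. Among all gamma-delta cells the members made up 67.8% of 255 in WT 1 (95% Clopper-Pearson interval 61.7 to 73.5), 63.0% of 297 in WT 2 (57.2 to 68.5), 28.7% of 94 in Il1a-/- 1 (19.9 to 39.0) and 36.8% of 174 in Il1a-/- 2 (29.6 to 44.4). Both WT tumours lay above both Il1a-/- tumours, and within each pair of the same number the Il1a-/- tumour was lower, with differences of -39.1 and -26.2 percentage points. The means were 65.4% ± 3.45 (SD, n = 2) and 32.8% ± 5.70 (SD, n = 2). An exact two-sided permutation test gave p = 0.333, the smallest that 2 tumours against 2 can give.

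Depth moved with this difference. Thinned to 1000 UMIs, with the rule applied again to the thinned counts, the shares were 41.3, 28.8, 30.4 and 14.3%. The difference of the means was -12.7 percentage points (exact permutation p = 0.667), and the groups overlapped. The shallowest library, Il1a-/- 1, lay just above WT 2 at this depth. Restricting the count to cells with at least 1000 UMIs without thinning left a difference of -28.7 points. Leaving out every cell with an Ncr1 or Klrb1c UMI left -20.9 points. Xcl1 in barcodes with 100 UMIs or fewer, taken as empty droplets, stood at 139, 175, 43.0 and 24.5 CPM, higher in both WT tumours. An Xcl1 UMI was found in 2.77, 1.60, 0 and 0.704% of phagocytes, and in 4.60, 5.69, 5.11 and 0.309% of CD4 T cells, at median depths of 2898, 4402.5, 1232 and 2537.5 UMIs in the latter. The part of depth and of free RNA in the difference was otherwise not tested.

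**Figure D2:**
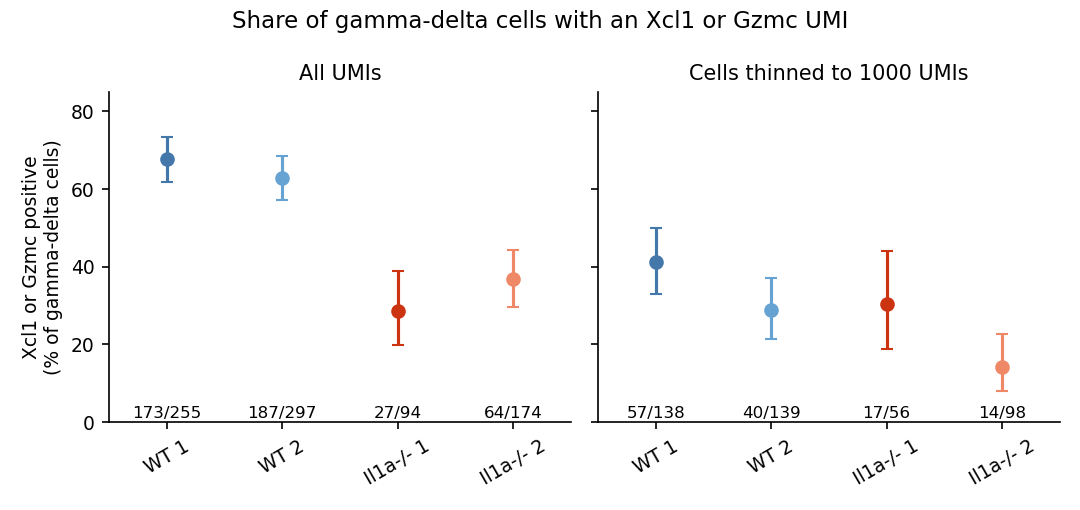
Members as a percentage of all gamma-delta cells in each tumour, with all UMIs (left) and after thinning to 1000 UMIs (right). On the right, the rule was applied again to the thinned counts, and cells under 1000 UMIs were left out. Bars are 95% Clopper-Pearson intervals, which cover counting error only, and the numbers give members over gamma-delta cells; the groups separate on the left (63.0 and 67.8% against 28.7 and 36.8%) and overlap on the right.

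Against all cells of a tumour, the members were 4.32, 4.67, 0.840 and 1.92%. Both Il1a-/- tumours were lower than both WT tumours, with a difference of means of -3.12 points, and the exact permutation test again gave its smallest value, p = 0.333. The other gamma-delta cells were 2.05, 2.75, 2.09 and 3.30% of all cells, and here the groups overlapped. NK lineage cells were 17.9, 16.7, 13.4 and 10.3%, and CD8 T cells 2.50, 4.24, 20.2 and 15.9%. Shares of all cells depend on what else was captured, and fewer cells cannot be told apart from more of the others.

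The next question was which genes separated the Xcl1+ cells from the other gamma-delta cells of the same tumours. Counts were summed per tumour and population and tested with edgeR's quasi-likelihood test with the tumour as a block and Benjamini-Hochberg adjustment. Of 3748 genes tested outside the rule, 70 (1.87%) were higher and 97 (2.59%) lower in the Xcl1+ cells at an adjusted p under 0.05. NK receptors, granzyme B and the chemokine Ccl4 were higher, and genes of the interleukin 17 programme and of recirculating lymphocytes were lower. The groups were split on an Xcl1 UMI, which a deeper cell is more likely to show, and the members were deeper in every tumour (the other gamma-delta cells had medians of 2649.5, 3598, 1177 and 2572 UMIs). With cells thinned to 1000 UMIs and the rule applied again to the thinned counts, 591 genes could be tested and 6 were called. Cells under 1000 UMIs were left out. A member that lost only its Xcl1 and Gzmc UMIs counted among the other gamma-delta cells, so the groups were not the same cells. The number of calls fell from 167 to 49 without WT 1 and to 59 without WT 2, the libraries with the most members. Without cells that had an Ncr1 or Klrb1c UMI, 2542 genes could be tested, and 21 were higher and 56 lower. The higher side thus fell more than the lower side.

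Granule genes were the smaller part of this difference. Gzmb (ENSMUSG00000015437; chromosome 14, 56258838 to 56262260, minus strand), a protease that starts apoptosis in the target cell, stood at 78.5, 523, 146 and 127 CPM in the Xcl1+ cells and at 16.5, 69.8, 46.7 and 76.5 in the other gamma-delta cells. It was higher in the Xcl1+ cells of all 4 tumours, with a log2 fold change of 2.25 (SE 0.25, edgeR adjusted p = 4.76e-07), and the level in WT 2 was 156 without its highest cell. Without WT 2 the log2 fold change was 1.28 (edgeR adjusted p = 0.0552). Nkg7, a granule membrane protein, rose by 0.64 (SE 0.09, edgeR adjusted p = 2.94e-05), and Serpinb9, which protects the killer cell from its own granzyme B, by 0.60 (SE 0.17, edgeR adjusted p = 0.0351). Gzma stood at 407, 646, 365 and 853 against 90.8, 950, 490 and 509, with no consistent order between the populations, and Prf1 at 133, 238, 146 and 86.1 against 74.3, 286, 140 and 59.9. Of 12 granule genes tested, 3 passed, all higher, with a median log2 fold change of 0.35 against 0.00 for all genes.

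Killer lectin-like and other innate receptors formed the larger group. Of 18 tested, 8 were higher and 0 lower, with a median of 0.55. Cd160, a member of the marker set that the rule did not use, stood at 108, 106, 48.7 and 73.8 in the Xcl1+ cells and at 33.0, 40.5, 11.7 and 26.6 in the others, higher in every tumour (1.55, SE 0.25, edgeR adjusted p = 0.000106). In Il1a-/- 1 the Cd160 levels rest on 2 members and 1 other gamma-delta cell. Cd244, a receptor of the SLAM family, rose by 1.21 (SE 0.23, edgeR adjusted p = 0.00136) and was lower in the Xcl1+ cells of Il1a-/- 1, where 1 UMI made up its level of 24.4. Il2rb, the beta chain of the receptors for interleukins 2 and 15, rose by 0.42 (SE 0.10, edgeR adjusted p = 0.00782). The remaining 5 were Klrb1f, Klre1, Klrc1, Klrc2 and Cd7.

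Of the 14 NK and type 1 innate lymphoid genes tested, 7 rose and 1 fell. Ncr1 stood at 462, 462, 341 and 213 against 136, 252, 257 and 96.5, higher in the Xcl1+ cells of each tumour (1.16, SE 0.16, edgeR adjusted p = 1.19e-05). Fcer1g, an adaptor that carries the signal of several NK receptors, stood at 1048, 1119, 853 and 791 against 351, 576, 584 and 369 (1.15, SE 0.12, edgeR adjusted p = 1.18e-07), and Tyrobp, a second such adaptor, rose by 0.75. Itga1, an integrin of tissue-resident lymphocytes, rose by 1.61 (SE 0.34, edgeR adjusted p = 0.00325). Klra5, an inhibitory Ly49 family receptor (ENSMUSG00000030173; chromosome 6, 129898996 to 129917650, minus strand), had the largest rise, 2.51 (SE 0.48, edgeR adjusted p = 0.00106), from levels of 29.3, 44.1, 97.4 and 41.0 against 0, 4.5, 58.4 and 6.66. The transcription factors Eomes and Tbx21 did not pass, at 226, 302, 170 and 176 against 260, 290, 140 and 86.5 for Eomes. Klra reads can be shared between family members and differ between strains, so single Klra genes are uncertain.

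Outside these lists, Ccl4, a chemokine of activated lymphocytes, stood at 176, 95.0, 341 and 160 against 4.13, 24.8, 128 and 43.3, higher in the Xcl1+ cells of every tumour (2.26, SE 0.28, edgeR adjusted p = 3.45e-06). The activation genes Gadd45g (1.76), Tnfrsf9 (1.54, the receptor 4-1BB) and Gem (1.27) also rose. Ifng, the interferon gamma gene, was not tested after the filter on low counts. It stood at 73.2, 137, 73.1 and 16.4 in the Xcl1+ cells and 33.0, 27.0, 0 and 33.3 in the others, and 113 of its 224 UMIs in the members came from 1 cell of WT 2.

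Genes of the interleukin 17 programme were lower in the Xcl1+ cells, and several had no UMI there. Il17a (ENSMUSG00000025929; chromosome 1, 20730905 to 20734496, plus strand) had 0 UMIs in 451 members, which allows at most 0.665% of cells with a UMI, and 99 UMIs in 23 of the other gamma-delta cells. With a floor of 3 counts over all members, the pooled level of Il17a was 68.1-fold lower. That figure takes UMIs as independent, though the 99 sat in 23 cells, so it is not a lower limit. By cells, at most 0.665% of members compares with 6.23% of the other gamma-delta cells. Il23r, Sox13, Ccr6, Il17re, Il17f and 5830411N06Rik also had 0 UMIs in members, but none of them passed the low-count filter of this comparison. For these genes, 0 UMIs in members alone does not show a difference from the other gamma-delta cells. Of the 9 genes of this list tested, 8 fell and 0 rose, with a median of -2.71 against 0.00 for all genes tested. Cd163l1, a scavenger receptor carried by interleukin 17 producing gamma-delta cells, stood at 0, 4.24, 0 and 0 against 186, 99.0, 105 and 250 (-5.79, SE 0.40, edgeR adjusted p = 5.86e-11). Maf, a transcription factor of that programme, stood at 26.6, 23.8, 24.4 and 32.8 against 210, 131, 175 and 270 (-2.71, SE 0.22, edgeR adjusted p = 4.8e-10). In all 4 tumours both genes were lower in the Xcl1+ cells. Tmem176a fell by 3.44 and Tmem176b by 3.41, and Trdv4 fell by 3.17, while Ccr2 did not pass. Other genes of the list were lower but present: Cxcr6 stood at 181, 148, 146 and 115 against 277, 254, 163 and 283, and Rora at 47.9, 26.3, 48.7 and 226 against 169, 87.8, 373 and 536.

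Genes of circulating and naive lymphocytes were lower as well. Of 12 tested, 8 fell and 0 rose, with a median of -1.03. S1pr1, the receptor that lets lymphocytes leave tissue, stood at 21.3, 15.3, 73.1 and 12.3 against 153, 96.8, 105 and 116 (-2.62, SE 0.27, edgeR adjusted p = 1.21e-07). Il7r, the interleukin 7 receptor, stood at 172, 29.7, 341 and 217 against 710, 358, 619 and 1082, lower in each tumour (-2.37, SE 0.19, edgeR adjusted p = 4.8e-10). Klf2, which drives S1pr1, fell by 1.52. The homing receptor Ccr7 (-1.69) fell, as did the transcription factors Lef1 (-1.27) and Tcf7 (-0.66). Checkpoint and activation receptors divided, with 2 higher (Tnfrsf9 and Tnfrsf18) and 2 lower of 8: Pdcd1, which encodes PD-1, fell by 2.52 and Icos by 1.67. Of 7 interferon-induced genes tested, 3 were lower, among them Gbp2 (-1.46) and Igtp (-1.10), and 0 higher.

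**Figure D3:**
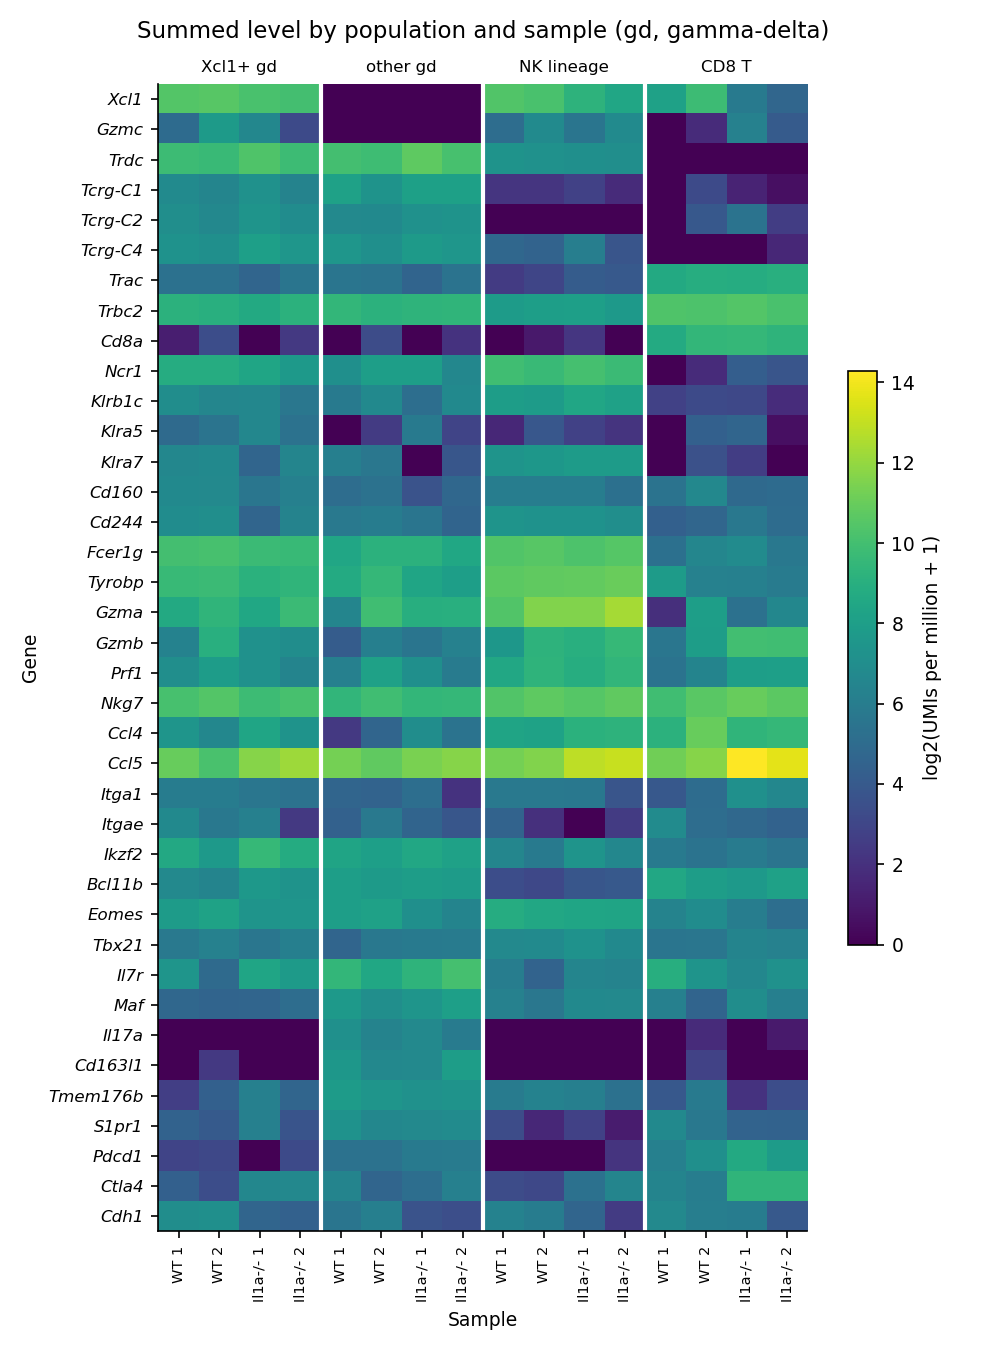
Level of 38 genes on a log2(CPM + 1) scale (colour) in Xcl1+ gamma-delta, other gamma-delta, NK lineage and CD8 T cells, with 4 tumours a population as columns. Xcl1, Gzmc and Trdc define the gamma-delta populations; Il17a and Cd163l1 are dark in the Xcl1+ cells and light in the other gamma-delta cells, and Ncr1, Fcer1g and Tyrobp are lowest in CD8 T cells.

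Set against the NK lineage of the same tumours, the Xcl1+ cells had higher levels of T cell genes and lower levels of Gzma, Prf1 and Gzmb. Members needed a Cd3 and a Trdc UMI, while NK lineage cells needed an Ncr1 or Klrb1c UMI and no Cd3 UMI. Higher T cell genes and lower NK genes in the members thus follow in part from how the groups were chosen. They are no further support for the label. Of 6915 genes tested outside the rule, 172 (2.49%) were higher and 178 (2.57%) lower in the Xcl1+ cells by the same edgeR test, so 49.1% of calls were higher. DESeq2 called 131 higher and 86 lower, or 60.4% higher. The edgeR count fell from 350 to 185 without WT 1 and to 203 without WT 2. This comparison uses the same members as the one before it and is not independent of it.

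Gamma chain genes and genes of T cell identity were higher. All 5 gamma-delta receptor genes tested rose, among them Tcrg-C1 (4.85, SE 0.25, edgeR adjusted p = 1.53e-15) and Tcrg-C4 (2.76, SE 0.19, edgeR adjusted p = 2.4e-12). Bcl11b, the transcription factor that commits progenitors to the T lineage, stood at 106, 85.7, 195 and 160 against 9.40, 7.61, 13.3 and 15.1 in the NK lineage (3.58, SE 0.20, edgeR adjusted p = 1.55e-14). Its level was higher in the Xcl1+ cells of every tumour. Of 8 genes of the CD3 complex and its signalling, 6 rose and 0 fell, including Cd28 (1.09) and Cd27 (0.89). Plcg1, which acts directly below the T cell receptor, rose by 3.70, Ikzf2 (Helios) by 2.10, and Itgae, the integrin CD103, by 2.88. Itgae was uneven, at 109, 50.9, 73.1 and 4.10, against 22.3, 2.98, 0 and 4.66. Trac rose by 2.44 and Trbc2 by 1.29.

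Granule and mature NK genes were lower. Gzma stood at 407, 646, 365 and 853 in the Xcl1+ cells and at 1380, 3112, 3023 and 5178 in the NK lineage (-2.19, SE 0.13, edgeR adjusted p = 2.68e-14). Prf1 stood at 133, 238, 146 and 86.1 against 374, 619, 471 and 672 (-1.62, SE 0.16, edgeR adjusted p = 6.95e-09), and Gzmb fell by 1.02 (SE 0.20, edgeR adjusted p = 0.00135). For Gzma, Prf1 and Gzmb the NK lineage was higher in all 4 tumours. Of the 12 granule genes, 5 fell and 0 rose. NK and type 1 innate lymphoid genes divided 2 higher and 9 lower of 14, lectin-like receptors 4 higher and 10 lower of 20, and effector transcription factors 3 higher and 9 lower of 20. Eomes fell by 0.62, Tbx21 by 0.65, and Irf8, a transcription factor of NK and myeloid cells, fell by 1.74. The integrins Itgam (-2.47) and Itgax (-2.70), the receptor Klrg1 (-1.92) and S1pr5 (-2.45), which are found on mature circulating NK cells, fell. Trf was called at -2.95, but it stood at 0.17 (edgeR adjusted p = 0.864) once cells with 10 or more UMIs of fibroblast or tumour genes were left out.

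Against CD8 T cells, of 6710 genes tested, 93 (1.39%) were higher and 103 (1.54%) lower in the Xcl1+ cells by the same test. The 196 calls fell to 107 without Il1a-/- 2 and to 112 without WT 2. NK and type 1 innate lymphoid genes were 10 higher and 0 lower of 15, with a median of 2.87 against -0.03 for all genes tested. Ncr1 stood at 462, 462, 341 and 213 against 0, 2.37, 18.1 and 12.6 in CD8 T cells, without overlap (5.09, SE 0.43, edgeR adjusted p = 1.72e-06). Fcer1g rose by 3.70, Tyrobp by 2.88, Klrb1c by 3.83 and Eomes by 1.59. Gzma rose by 2.90 (SE 0.43, edgeR adjusted p = 0.000628), but stood at -0.31 (edgeR adjusted p = 0.995) without the cells that had an Ncr1 or Klrb1c UMI. Checkpoint receptors were lower, 6 of 12 with 0 higher and a median of -1.88. Pdcd1 stood at 6.65, 7.64, 0 and 8.20 against 74.0, 139, 412 and 231 (-4.23, SE 0.30, edgeR adjusted p = 2.66e-07), Lag3 fell by 3.28 and Ctla4 by 2.61. Themis, a T cell receptor signalling protein, fell by 3.29 and Trac fell by 3.57.

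The host was then compared within the Xcl1+ cells. Of 5796 genes, 68 (1.17%) were higher and 10 (0.173%) lower in Il1a-/- than in WT hosts by edgeR's quasi-likelihood test at an adjusted p under 0.05. Ctla4, Icos, Cd28 and Nr4a3 were among those that rose, and Cdh1, Capg, Lgals3 and Ltb among those that fell. The count of 78 depended on single libraries: without Il1a-/- 2 it was 5, of which 1 was also called with all 4 tumours, and without WT 1 it was 137. It was 126 without cells that had 10 or more UMIs of fibroblast or tumour genes. With a gamma constant UMI required of every cell it was 12, and thinned to 1000 UMIs also 12, with 356 genes tested.

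Co-stimulatory and checkpoint genes were measured as follows. Ctla4, the inhibitory receptor that competes with Cd28, stood at 19.96, 9.33, 97.4 and 102.5, higher in both Il1a-/- hosts (2.84, SE 0.47, edgeR adjusted p = 0.00972), and the level in Il1a-/- 1 rests on 4 UMIs. Icos rose by 2.28 (43.9, 25.5, 122 and 180), and Cd28 itself stood at 77.2, 57.7, 195 and 262 (1.85, SE 0.29, edgeR adjusted p = 0.0075). Neither Icos nor Cd28 overlapped between the hosts, but both were named as called genes, so this is no further support. Of 7 checkpoint and activation receptors tested, 2 rose (Ctla4 and Icos) and 0 fell, with a median of 0.25 against -0.05 for all genes.

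Of 18 effector transcription factors tested, 1 rose, Nr4a3, and 0 fell, with a median of 0.48 against -0.05 for all genes. Nr4a1 (0.85), Nr4a2 (1.20) and Egr1 (1.18) did not pass. Nr4a3, an orphan nuclear receptor induced by receptor signalling, stood at 176, 99.3, 633 and 525 (2.00, SE 0.30, edgeR adjusted p = 0.00627). Tnfaip3, an inhibitor of NF-kappaB signalling, stood at 279, 182, 926 and 759 (1.78, SE 0.28, edgeR adjusted p = 0.0075), and Bcl2l11, which encodes the death-promoting protein BIM, at 232, 188, 901 and 652 (1.77, SE 0.27, edgeR adjusted p = 0.00627). For Nr4a3, Tnfaip3 and Bcl2l11, which were named as called genes, both Il1a-/- tumours were above both WT tumours. Bcl2l11 lies at 128126038 to 128162547 on chromosome 2, the chromosome of Il1a. For Bcl2l11, the genotype of neighbouring genes and the loss of Il1a therefore cannot be told apart. Atf3, a stress-induced transcription factor, rose by 2.88 from 6.65, 5.94, 24.4 and 53.3, where the value of Il1a-/- 1 is a single UMI. Tissue digestion also induces such genes: of 20 dissociation and heat shock genes tested, Atf3 rose and 0 fell, and their median was 0.68 against -0.05 for all genes. The part of digestion in these results was not tested.

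Ccl5, a chemokine stored and secreted by cytotoxic lymphocytes, stood at 2028, 1176, 3337 and 4727 (1.29, SE 0.30, edgeR adjusted p = 0.0491). The chemokine receptor Cxcr4 rose by 1.60 (249, 101, 585 and 517), and Satb1, a chromatin organiser of T cells, by 1.51. Rora, a nuclear receptor of innate-like lymphocytes, rose by 2.33, but at 47.9, 26.3, 48.7 and 226 only Il1a-/- 2 stood clear of WT. Ly6a (ENSMUSG00000075602; chromosome 15, 74994877 to 74998031, minus strand), an interferon-induced surface protein, was also set by Il1a-/- 2, at 17.3, 16.97, 24.4 and 168 (2.96, SE 0.48, edgeR adjusted p = 0.00972). Of 10 interferon-response genes tested, 0 passed by edgeR in either direction, with a median of 1.08 against -0.05 for all genes.

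The largest rise was that of Eif3j1, a translation initiation subunit, at 19.96, 15.3, 170.5 and 131 (2.97, SE 0.40, edgeR adjusted p = 0.00627). It rose in the other gamma-delta cells by 2.30, in all gamma-delta cells by 2.77 and in the NK lineage by 2.89, all by edgeR. Eif3j1 lies on chromosome 2 at 122028546 to 122056598, and Il1a on the same chromosome at 129299610 to 129309972, so the genotype of neighbouring genes and the loss of Il1a cannot be told apart. Its count is uncertain, since reads may be shared with its near-identical copy Eif3j2. Eif3j2, looked at after these values were seen, stood at 55.9, 30.6, 0 and 0 in the Xcl1+ cells, the opposite order.

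In all, 10 genes were lower in Il1a-/- hosts. Cdh1 (ENSMUSG00000000303; chromosome 8, 106603351 to 106670246, plus strand) encodes E-cadherin, the ligand of the CD103 integrin and of Klrg1, and is also made by some lymphocytes. It stood at 129, 136, 24.4 and 20.5 (-2.66, SE 0.44, edgeR adjusted p = 0.00972), with 1 UMI behind the value of Il1a-/- 1. Capg, an actin-capping protein, stood at 133, 169, 24.4 and 28.7 (-2.45), and Lgals3, a galactose-binding lectin, at 350, 654, 73.1 and 111 (-2.33). Ltb, the membrane partner of lymphotoxin alpha, had more UMIs behind it, at 1176, 1249, 487 and 517 (-1.31, SE 0.26, edgeR adjusted p = 0.0212). Cdh1, Capg, Lgals3 and Ltb did not overlap between the hosts, but they were named as called genes, so this is no further support. The Capg value of Il1a-/- 1 is also a single UMI. Tnfsf10, which encodes the death ligand TRAIL, fell by 1.80 and Inpp4b, a lipid phosphatase, by 1.48. The others were Pacsin1, Car2, AU020206 and Ptpn6, with log2 fold changes from -2.15 to -1.30. Phagocytes also make Lgals3 and Capg: the 11-gene phagocyte list summed to 95.8, 138, 73.1 and 69.7 CPM in the members, with Fcgr1 at 0, and its part in these results was not tested.

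Lytic and NK receptor genes were compared between hosts within the Xcl1+ cells. Of 12 granule genes, the protease inhibitors Serpinb9 (1.32) and Serpinb6b (1.21) rose and 0 fell, where 1.17% of all genes rose. Gzma, at 407, 646, 365 and 853, Gzmb, at 78.5, 523, 146 and 127, and Prf1, at 133, 238, 146 and 86.1, overlapped between the hosts and did not pass. None of 18 lectin-like receptors passed, and of 15 NK and type 1 innate lymphoid genes 2 fell (Tnfsf10 and Inpp4b), where 0.173% of all genes fell. A miss at this size does not show equal levels: in simulated counts with a log2 difference of 3, the host comparison recovered 84.1% of the changed genes. The spread in those counts was assumed and not taken from these data. The 84.1% therefore does not give the recovery for these granule and NK genes.

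**Figure D4:**
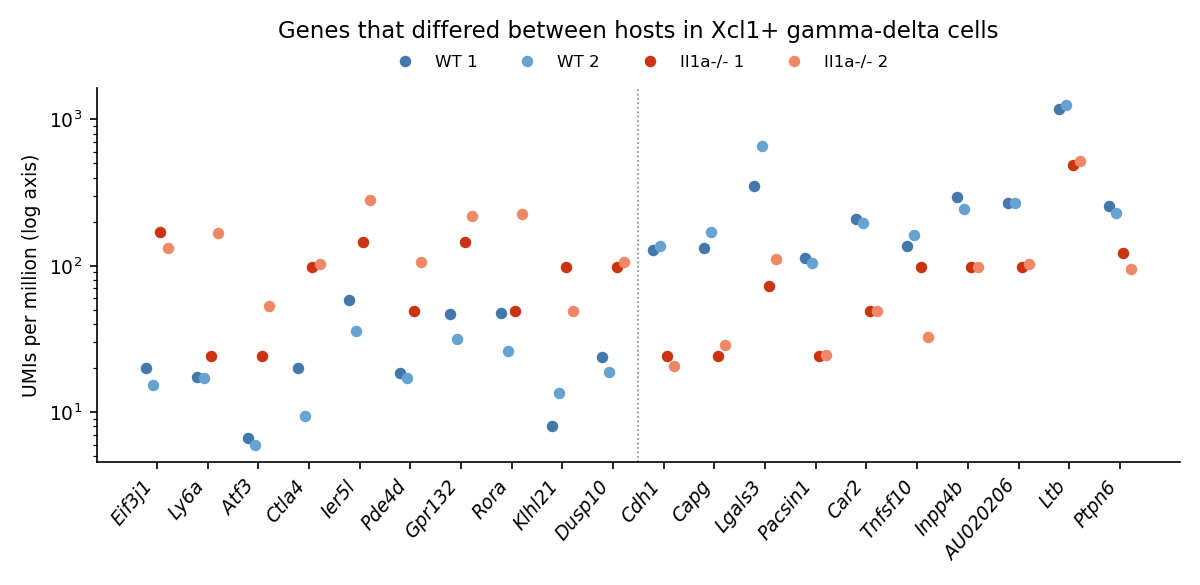
Level (CPM, log axis) of the 10 genes with the largest rise and the 10 that fell between hosts in Xcl1+ gamma-delta cells, 1 point a tumour; the dotted line divides the risen from the fallen. For Ctla4, Ier5l and Gpr132 both Il1a-/- tumours lie above both WT tumours, while for Ly6a and Rora only Il1a-/- 2 stands clear (168 and 226), and 1 UMI in Il1a-/- 1 equals 24.4.

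In the other gamma-delta cells the host comparison called 35 genes higher (0.889%) and 12 lower (0.305%) of 3939 genes by edgeR, and 136 in all without Il1a-/- 1. Whether the 2 populations differ in their number of host differences was not tested. Several named genes moved the same way in both populations, which come from the same 4 tumours. Gpr132, a G protein-coupled receptor for lipids, rose by 2.36 in the Xcl1+ cells and 2.03 in the others, Icos by 2.28 and 1.44, and Capg moved by -2.45 and -1.42. Ltb moved by -1.31 and -1.04. Eomes fell in the other gamma-delta cells by 1.44 (260, 290, 140 and 86.5) and did not pass in the Xcl1+ cells. The difference of the Eomes host effect between the populations was 0.83 (SE 0.37) and did not pass (edgeR adjusted p = 0.681).

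The interaction of population and host, which tests whether the host effect differed between Xcl1+ and other gamma-delta cells, called 9 genes higher (0.195%) and 26 lower (0.562%) of 4624 by edgeR. Among the lower ones were collagens and other matrix genes made by fibroblasts, such as Col6a1 and Postn. These came from few cells. Members of WT 2 included 2 cells with 1751 and 3021 UMIs of the 7-gene fibroblast list, and 1 member of Il1a-/- 2 had 469, while 2 other gamma-delta cells of Il1a-/- 2 had 301 and 495 and 1 of WT 2 had 327 UMIs of tumour epithelial genes. The whole fibroblast list summed to 37.3, 4088, 73.1 and 1943 CPM in the members and 49.5, 81.0, 35.01 and 2672 in the others, with none of its 7 genes at 0. Without cells with 10 or more such UMIs, 5 genes were called and the matrix genes were too low to test.

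Those 5 were Ccl5, Ly6a, Cxcr4, Btg1 and Gzmb. Ccl5 rose more in the Xcl1+ cells, by 0.85 on the log2 scale (edgeR adjusted p = 5.16e-06), from 2567, 1789, 2731 and 3248 in the other gamma-delta cells. Cxcr4 differed by 1.24, Btg1, an antiproliferative gene, by 0.60 and Ly6a by 2.24 (edgeR adjusted p = 0.0224 for each). Ly6a turned to -0.52 without WT 2, whose other gamma-delta cells stood at 446 against 28.9 in WT 1. Gzmb went the other way, by -2.05 (edgeR adjusted p = 0.0417), and without the cell with the most Gzmb UMIs of each population and tumour the interaction of Gzmb was -1.003 (edgeR adjusted p = 0.932). The calls depended on single libraries: 0 genes were called by edgeR without Il1a-/- 2 (384 at an unadjusted p under 0.05) and 0 without WT 2 (156 at that level), and DESeq2 called 1 with all 4 tumours. Thinned to 1000 UMIs, edgeR called 0 (48 at an unadjusted p under 0.05).

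Since Xcl1 selected the members, its level among them was no test. It stood at 1402, 1531, 1145 and 1025 CPM. Over all 820 gamma-delta cells, chosen without Xcl1, it stood at 1061, 1112, 371 and 459, lower in both Il1a-/- hosts (-1.38, SE 0.21, edgeR adjusted p = 0.00479). With cells thinned to 1000 UMIs and gamma-delta cells chosen again on the thinned counts, the Xcl1 difference was -1.34 (edgeR adjusted p = 0.0158). Without the cells that had an Ncr1 or Klrb1c UMI it was -0.98 and did not pass (edgeR adjusted p = 0.0714). In that comparison 144 (2.05%) of 7019 genes were higher and 47 (0.67%) lower, and the total of 191 became 13 without Il1a-/- 2, 108 without Il1a-/- 1 and 452 without WT 1. The NK lineage, also chosen without Xcl1, stood at 1366, 1154, 600 and 351 (-1.44, SE 0.21, edgeR adjusted p = 0.0006), among 518 genes higher (5.83%) and 470 lower (5.29%) of 8878. That total of 988 became 602 without Il1a-/- 1 and 368 by DESeq2. All 6 tumour epithelium genes tested (median -8.63) and 6 of 7 fibroblast genes were among the lower calls, and without cells with 10 or more UMIs of those lists the Xcl1 difference in the NK lineage was -1.54 (edgeR adjusted p = 1.1e-05). In CD8 T cells the values were 284, 874, 57.5 and 25.7, given without a test. The 4 tumours were ordered alike by host in each of these populations, which come from the same tumours. Xcl1 in empty droplets had the same host order (139, 175, 43.0 and 24.5 CPM), and the part of free RNA in these differences was not tested. Fewer Xcl1+ cells cannot be told apart from less Xcl1 RNA per cell.

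**Figure D5:**
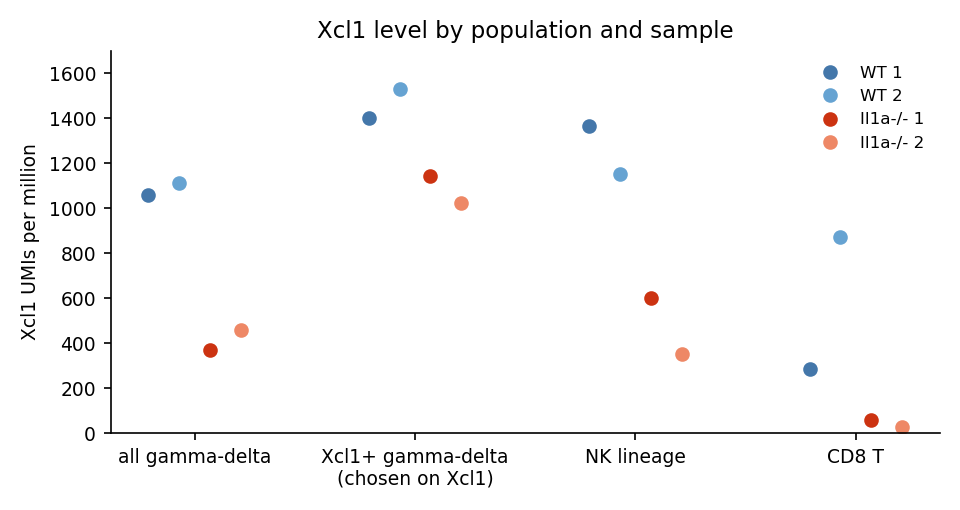
Xcl1 level (CPM) in all gamma-delta cells, Xcl1+ gamma-delta cells, NK lineage cells and CD8 T cells, 1 point a tumour. Both Il1a-/- tumours lie below both WT tumours in each population. The Xcl1+ cells (1025 and 1145 against 1402 and 1531) were chosen on this gene.

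Over all gamma-delta cells, of which the Xcl1-negative ones were a larger share in Il1a-/- hosts, some genes of the interleukin 17 programme and of the other gamma-delta cells were higher in Il1a-/- hosts. Maf rose by 1.29, Rora by 2.54, Cd163l1 by 1.65, Igf1r by 2.14 and Il7r by 1.56, each at an edgeR adjusted p under 0.05. Trdv4 rose by 2.38. Il17a itself, at 144, 83.3, 105 and 59.9 in the other gamma-delta cells, did not pass between hosts. Of the 14 genes of this list tested over all gamma-delta cells, 3 rose and 1, Ramp1, fell, with a median of 1.33 against -0.02 for all genes.

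The deleted gene was checked last. Il1a had 67, 112, 1 and 0 UMIs over all cells of the 4 tumours, in the order of the labels. Members held 1 Il1a UMI in all, in WT 1. Il1r1, its receptor, had 0, 7, 0 and 0 UMIs in members, in 2 cells, and stood at 16.5, 27.0, 81.7 and 56.6 CPM in the other gamma-delta cells. At 0 of 27 and 0 of 64 cells, a share of up to 11.1 and 4.69% of members with an Il1r1 UMI at this depth is allowed in the Il1a-/- hosts, which limits cells with a UMI and not cells with the transcript.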

How the data were processed

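The authors deposited UMI counts per gene and cell barcode for 4 tumours, made with Cell Ranger 3.1.0 on a joint human and mouse (mm10) reference, per the file headers and the submitters' processing notes. All barcodes were deposited, so cells were called here (500 UMIs, 250 genes, 20% mitochondrial), and human genes were left out. Members, lists and tests were chosen with earlier results of these data known. Populations were gated on genes, since no cell annotation was used here, and summed per tumour. Genes outside the 12 rule genes were tested in edgeR 4.0.16 (R 4.3.3; filterByExpr, TMM, quasi-likelihood, Benjamini-Hochberg at 0.05), with the tumour as a block between populations and without it between hosts; the SE is the log2 fold change over the square root of F. DESeq2 1.42.0 was an alternative. Named genes were those of 26 lists plus the 10 most risen and 10 most fallen called genes, leaving out mitochondrial, ribosomal, unnamed and receptor segment genes. Doublets were kept; an alternative removed the barcodes with the highest Scrublet scores (scanpy 1.11.5), 9 of them members. The tests were tried on simulated counts with an assumed spread. Each tumour is 1 library. Host p-values rest on the spread between these libraries. Those between populations and of the interaction rest on how far the within-tumour difference varied between tumours. Intervals and limits for counts of 0 cover counting error only. Results of a few genes are not reported here.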

Additional observations from a re-analysis of the deposited data

Results flagged for a closer look

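The host effect (Il1a-/- minus WT, log2) differed between the Xcl1+ and the other gamma-delta cells for 20 named genes by edgeR's interaction test with Benjamini-Hochberg adjustment. In 9 of them the host effect was higher in the Xcl1+ cells. The difference was 2.75 for Ly6a (adjusted p = 2.39e-08), 2.39 for Ctla4 (adjusted p = 0.0358), 1.25 for Cxcr4 (adjusted p = 0.000517) and 1.00 for Bcl2l11 (adjusted p = 0.0271). It was 0.98 for Ly6c2, another Ly6 family surface protein, 0.90 for Tnfaip3, 0.87 for Ccl5 (adjusted p = 2.39e-09), 0.70 for Vps37b, an endosomal sorting subunit, and 0.61 for Btg1. Once cells with 10 or more UMIs of fibroblast or tumour genes were left out, 5 of these 9 no longer passed by edgeR, at similar differences: Ctla4 (adjusted p = 0.0613), Bcl2l11 (adjusted p = 0.158), Ly6c2 (adjusted p = 0.386), Tnfaip3 (adjusted p = 0.147) and Vps37b (adjusted p = 0.0589). Bcl2l11 lies on chromosome 2, as Il1a does, so for it neighbouring genotype and the loss of Il1a cannot be told apart.

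In 11 genes the host effect was lower in the Xcl1+ cells, and 10 of these encode matrix, basement membrane or secreted stromal proteins. The differences were -12.29 for Fbn1, -9.26 for Col6a1, -8.36 for Serping1, -7.71 for Col5a1, -7.66 for Serpinf1, -7.62 for Postn, -7.31 for Nid1, -7.03 for Col5a2, -6.65 for Col6a2 and -6.27 for Bgn. None of these 10 could be tested once cells with 10 or more UMIs of fibroblast or tumour genes were left out. The difference for Gzmb, the granzyme, was -1.99 (edgeR adjusted p = 0.00639), and -1.003 (edgeR adjusted p = 0.932) without the highest Gzmb cell of each population and tumour.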

How the results depend on the processing

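The comparisons rest on 2 tumours a group, as few as 27 members in a tumour, and medians from 1389 to 5539 UMIs a member. Of 2601 alternative fits of 198 named gene results, 2171 kept direction and side of the threshold, 424 no longer passed and 6 turned: Trf to 0.17 (against the NK lineage, cells with fibroblast or tumour UMIs left out), Gzma to -0.31 (against CD8 T cells, no Ncr1 or Klrb1c UMI), and, in the interaction, Ly6a to -1.40 and Ly6c2 to -0.55 (both thinned). Without WT 2 the interaction of Ly6a was -0.52 and that of Ly6c2 -2.76e-06, and with 1 tumour left out they reached at most 3.44 and 1.56. The cause was not tested. The 2601 fits leave out alternatives in which the gene was not tested or had no adjusted p. Among those left out are the matrix genes of the interaction without fibroblast or tumour UMIs, so the kept part may be overstated. The alternatives on gamma constant, Ncr1 or Klrb1c, fibroblast or tumour, and highest Gzmb cells, and the comparison over all gamma-delta cells, were chosen after seeing the data. The difference in the share of gamma-delta cells that were Xcl1+, -32.7 percentage points, became -12.7 thinned to 1000 UMIs, -37.6 without cells with a Trac or Trbc UMI and -20.9 without those with Ncr1 or Klrb1c, and ranged from -36.7 to -28.6 with 1 tumour left out. The difference in the share of all cells, -3.12 points, became -0.737 thinned, -2.32 with 2 Trdc UMIs required, -0.0648 without Trac or Trbc, -1.73 with a gamma constant UMI required, -3.83 without fibroblast or tumour UMIs and -0.737 without Ncr1 or Klrb1c, and ranged from -3.66 to -2.58 with 1 tumour left out. DESeq2 in place of edgeR changed the number of called genes from 167 to 66 (Xcl1+ against other gamma-delta cells), 350 to 217 (against the NK lineage), 78 to 34 (hosts, Xcl1+), 47 to 28 (hosts, other gamma-delta), 35 to 1 (interaction) and 191 to 122 (hosts, all gamma-delta). Thinned, with fewer genes tested, the same counts were 6, 101, 12, 2, 0 (48 at an unadjusted p under 0.05 by edgeR) and 76, and 26 in place of 196 against CD8 T cells. Without the low-count filter they were 530 against the NK lineage, 462 against CD8 T cells, and 130, 175 and 457 for the hosts in Xcl1+, other and all gamma-delta cells, where the median of all genes moved to -0.42 in Xcl1+ cells. With 2 Trdc UMIs required they were 129 against CD8 T cells, 76 and 105 for the hosts in other and all gamma-delta cells, and 20 for the interaction. With a gamma constant UMI required they were 116 against CD8 T cells and 12, 24 and 89 for the hosts in Xcl1+, other and all gamma-delta cells. Without Ncr1 or Klrb1c they were 77 (21 higher, 56 lower) against the other gamma-delta cells, 73 against CD8 T cells, 3 for the interaction and 96 for all gamma-delta cells. Without fibroblast or tumour UMIs they were 126 (hosts, Xcl1+), 5 (interaction) and 386 (all gamma-delta), and with doublets removed 164, 21 and 321. Without cells with a Trac or Trbc UMI the all gamma-delta count was 17, and the other 6 comparisons could not be fitted because a population had under 10 cells in some tumour. WT tumours alone gave 256 against the other gamma-delta cells. With 1 tumour left out, counts ranged from 49 to 145 (other gamma-delta), 185 to 361 (NK lineage), 107 to 210 (CD8), 5 to 137, 57 to 136 and 13 to 452 (hosts in Xcl1+, other and all gamma-delta) and 0 to 52 (interaction, where the count was 0 by edgeR without WT 2, with 156 at an unadjusted p under 0.05, and without Il1a-/- 2, with 384). With no replicate block, that is without the tumour as a block, the population comparisons called 20, 46 and 114 genes against the other gamma-delta cells, the NK lineage and CD8 T cells. With the replicate number as a replicate block, the host comparisons called 273 genes in Xcl1+, 171 in other and 719 in all gamma-delta cells. The labels do not say that the numbers mark the collection days, and same-numbered tumours deviated together with a correlation of 0.150 in the Xcl1+ cells, 0.0841 in the other gamma-delta cells, 0.155 in the NK lineage and -0.101 in CD8 T cells.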

Other observations

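Members with and without a UMI of a gamma chain constant gene were set side by side for NK and cytotoxic genes. The split was chosen after values were seen, so it is a description with no test. Gzma stood at 52.8, 253, 297 and 354 CPM in members with such a UMI (WT 1, WT 2, Il1a-/- 1, Il1a-/- 2) and at 950, 1294, 458 and 2052 in those without. Tyrobp stood at 361, 286, 424 and 464 against 1483, 1818, 744 and 1061, and Prf1 at 48.4, 104, 84.8 and 46.4 against 263, 459, 229 and 181. In all 4 tumours Gzma, Tyrobp and Prf1 were lower where a gamma constant UMI was found. Other NK genes had no single order: Klrb1c stood at 74.8, 51.8, 127 and 46.4 against 212, 162, 57.2 and 55.8, Eomes at 128, 262, 212 and 134 against 377, 369, 114 and 279, and Tbx21 at 55.0, 72.2, 84.8 and 69.7 against 53.9, 83.2, 0 and 69.8. Gzmb stood at 68.2, 767, 170 and 87.1 against 94.4, 119, 114 and 223. Cxcr6, a chemokine receptor of tissue-resident lymphocytes, had the opposite order in 3 of the 4 tumours, at 235, 222, 212 and 104 against 97.7, 24.7, 57.2 and 140. Xcl1 itself was at 1403, 1746, 1060 and 1115 against 1402, 1177, 1259 and 810, with no single order.

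Lists of other cell types summed to different levels in the members. The fibroblast list was at 37.3, 4088, 73.1 and 1943 CPM, and the 5 regulatory T cell genes at 577, 391, 1023 and 787. The 9 tumour epithelium genes summed to 69.2, 23.8, 0 and 8.20 CPM, with Krt19, Erbb2 and Cldn4 at 0 in all tumours. The 7 B and plasma cell genes summed to 136, 136, 195 and 123, with Cd79a, Ms4a1 and Jchain among those at 0, and the 8 dendritic cell genes to 194, 300, 170 and 160, with Siglech and Clec9a at 0. The 6 neutrophil genes summed to 1.33, 14.4, 0 and 4.10, with S100a8 at 0.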
